A study of Mus musculus with 8 samples.

Results

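NF-κB is a family of transcription factors built as dimers from the products of 5 genes, Nfkb1, Nfkb2, Rela, Relb and Rel. In a resting macrophage most dimers are held in the cytoplasm by IκB proteins. Signals from Toll-like and cytokine receptors activate the IKK kinases, IκB is degraded, and the freed dimers turn on inflammatory genes together with genes for their own inhibitors. The resulting negative feedback helps to end a macrophage's NF-κB response. The 5 subunit genes and 5 NF-κB-induced inhibitor genes (Nfkbia, Nfkbie, Nfkbiz, Tnfaip3 and Tnip1) were chosen by name. All 10 were found among the 23761 genes of the deposited expression table.

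RNA-seq libraries were made from bone marrow-derived macrophages (BMDMs) of 4 LysM and 4 K2KO mice, all 3 months old. LysM mice have the genotype LysM Cre/Cre, in which Cre recombinase is expressed from the lysozyme M gene in myeloid cells, and K2KO mice are LysM Cre/Cre KLF2 flox/flox, so both groups carry the Cre alleles and only the latter carries a floxed Klf2. No group without Cre was included in the comparison. The marrow was cultured for 6 days in medium conditioned by L929 fibroblasts and replated. The sample labels mark all libraries as vehicle (veh). The paper's RNA-seq methods name no inflammatory stimulus for these cultures. Expression was given as FPKM, a fragment number scaled to transcript length and to the total of the library, which allows levels of different genes to be compared per length. Names of the libraries (LysM0 to LysM3, K2KO0 to K2KO3) follow the table's columns, from which the genotype but not the mouse can be read. The columns are numbered from 0 to 3 and the titles of the samples from 1 to 4, so that LysM1 or K2KO3 here is a column and not the sample with that title. Summed FPKM ranged from 497253 in LysM0 to 551608 in LysM3, and from 448235 in K2KO0 to 501965 in K2KO3. Read depth is not known from FPKM, and the spacing of the lowest values put the depth only roughly, at 0.889 to 1.33 relative to LysM0.

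Klf2 (chromosome 8, 72319033 to 72321656, plus strand), the floxed gene, was at 44.1, 52.9, 64.7 and 72.8 FPKM in LysM0 to LysM3 and at 45.5, 41.6, 59.2 and 59.3 FPKM in K2KO0 to K2KO3. The groups overlapped, and the log2 fold change of -0.18 (SE 0.17 by limma, adjusted p = 0.46) was not larger than the spread between libraries. A value per gene cannot tell the floxed exons from the others and so does not test the deletion. For this reason the text speaks of libraries labelled K2KO. Macrophage identity was seen in both groups. Cd68 ranged from 1683 to 1942 FPKM with LysM and from 1637 to 1862 FPKM with the K2KO label, and Csf1r, the receptor for macrophage colony-stimulating factor, was at 515 to 547 and 480 to 600 FPKM. Of the 8 macrophage markers, Mertk, an efferocytosis receptor, rose by 0.36 in log2 (limma adjusted p = 0.0285) and Lyz2, the gene that carries Cre in both groups, fell by 0.49 (limma adjusted p = 0.026). With each library left out in turn they were called in 2 and 4 of 8 fits, and with a correction for GC content, described below, Mertk was not called (0.28, limma adjusted p = 0.0752).

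NF-κB acts on the promoters of its own subunits and inhibitors through κB sites, and the windows below are shown because they hold the closest matches to such a site in the members' promoters. RefSeq promoter sequence (GRCm38.p6, the assembly of mm10) was matched for 7 of the 10 genes; Nfkb1, Relb and Nfkbiz were not matched. The motif searched was GGG followed by any 3 bases and TTCC, on either strand (in reverse, GGAA, any 3 bases and CCC), in the 250 bases before the start site. It was chosen after a looser form, GGG, any 5 bases and CC, had matched all 7 promoters but also 45.8% of the 32851 promoter windows in the table. The tighter motif was found in 6 of the 7 members (not in Rela), against 4.65% of all windows. The inhibitors were chosen as NF-κB-induced genes, and the motif was chosen after a first search. The excess over all windows is therefore not a test. Each line below gives 1 window 5′ to 3′ on the gene's strand, with the matching bases in capitals:
Nfkb2: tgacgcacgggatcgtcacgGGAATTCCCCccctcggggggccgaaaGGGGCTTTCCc
Rel: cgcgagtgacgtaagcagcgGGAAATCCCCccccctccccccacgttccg
Nfkbia: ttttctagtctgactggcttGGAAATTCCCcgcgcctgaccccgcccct
Nfkbie: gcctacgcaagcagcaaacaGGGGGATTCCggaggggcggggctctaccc
Tnfaip3: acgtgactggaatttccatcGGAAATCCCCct
Tnip1: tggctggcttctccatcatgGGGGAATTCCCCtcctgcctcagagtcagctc

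These windows lie at chr19:46304679-46304736 on the plus strand for Nfkb2, chr11:23771031-23771080 on the minus strand for Rel and chr12:55492648-55492696 on the minus strand for Nfkbia. That of Nfkbie is chr17:45555574-45555623 on the plus strand, that of Tnfaip3 chr10:19015411-19015442 on the minus strand and that of Tnip1 chr11:54962967-54963018 on the minus strand. Start sites here are those of RefSeq and can differ from the gene bounds of GENCODE given below: the windows of Nfkb2 (start site 46304737) and Tnfaip3 (start site 19015410) lie inside those bounds. Rel and Tnfaip3 held the same 10 bases. Nfkb2 had a match from 38 to 29 bases before its RefSeq start site and another nearer to it, and in Tnip1 matches on the 2 strands overlapped. The CACCC box, the kind of element that Krüppel-like factors bind, was present on either strand in Nfkb2, Rela and Tnfaip3, or 3 of the 7, against 52% of all windows. A match in a window is a description of letters and not of binding. Promoters with the κB motif belonged both to a gene called between the groups (Tnfaip3) and to genes that were not called. Nfkbiz, the other called member, had no matched promoter, so whether motif and calls go together was not tested.

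The genotypes were compared by limma on log2(FPKM + 0.1) for 10920 genes whose mean FPKM reached 1. A gene was called if its adjusted p was under 0.05 and its log2 fold change lay beyond 0.26 in either direction. Both thresholds follow the study's methods. All 10 members passed the filter. Of them, 2 were called, or 20%, which is close to the 18.4% of all tested genes that were called. Tnfaip3 was called higher in the libraries labelled K2KO (9.84% of tested genes were) and Nfkbiz was called lower (8.61% were). At an unadjusted p under 0.05 the numbers were 6 of the 10 members and 37.8% of all tested genes. The median log2 fold change was 0.0014 over the members and 0.011 over all tested genes. In bulk RNA a change in the level per cell cannot be told apart from a change in the share of cells that express a gene.

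**Figure D1:**
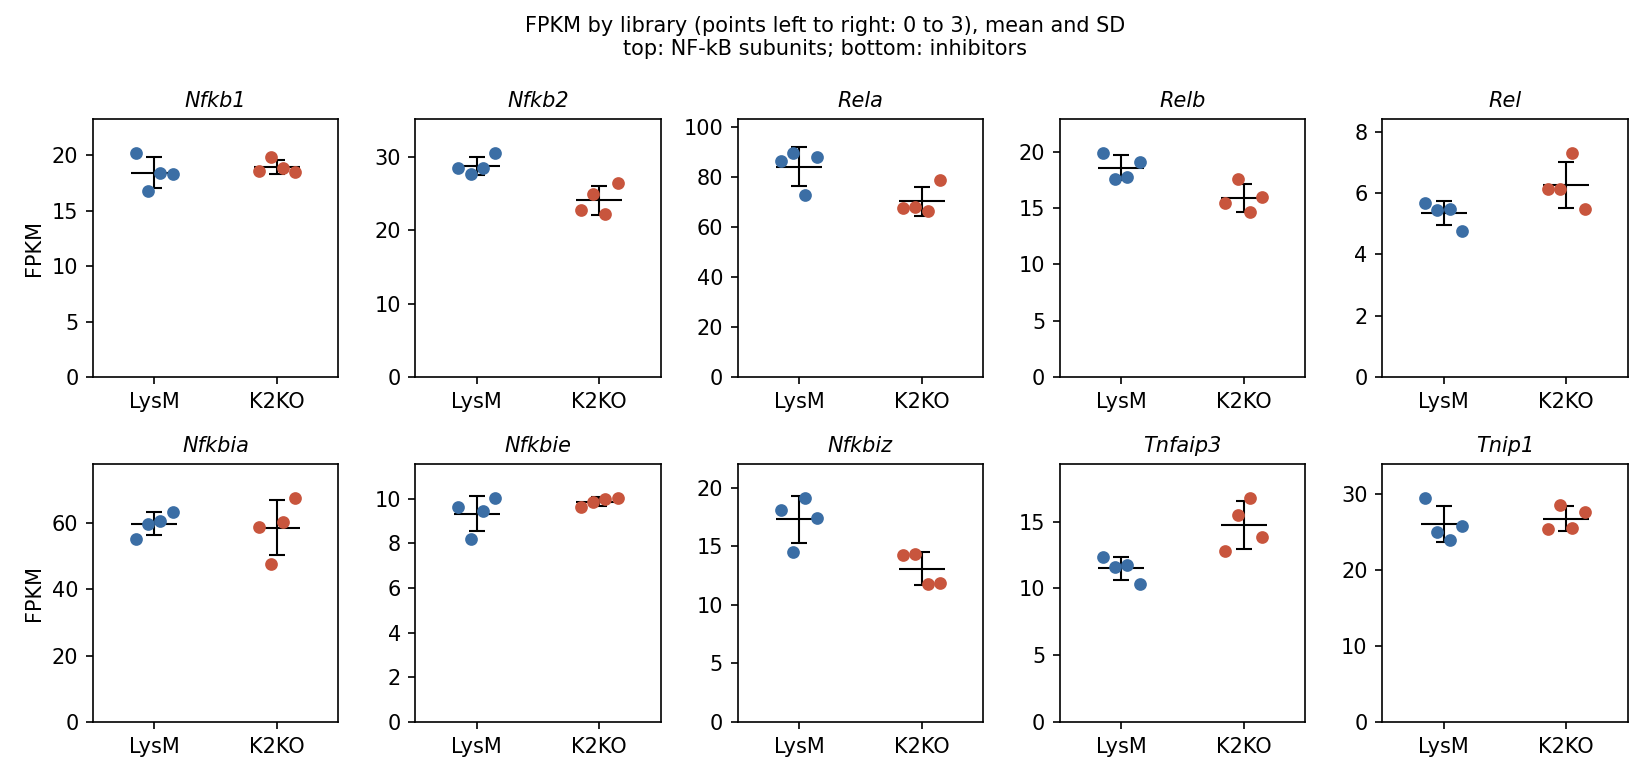
FPKM of each member in every library (y axis, FPKM, from 0; a panel per gene, subunits above and inhibitors below), with the 4 LysM libraries in blue, the 4 libraries labelled K2KO in red, and the mean and SD in black. The groups do not overlap for Nfkb2, Nfkbiz and Tnfaip3, and overlap for the other 7 genes.

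Among the subunits, Rela (chromosome 19, 5637483 to 5648130, plus strand; positions on mm10), the transactivating partner of the canonical dimer, was the most abundant in every library. It was at 86.3, 89.5, 72.6 and 87.7 FPKM in LysM0 to LysM3 and at 67.7, 68.03, 66.3 and 78.8 FPKM in K2KO0 to K2KO3. LysM2 and K2KO3 crossed, and the other libraries labelled K2KO lay below all LysM libraries. The mean was 84 ± 7.7 FPKM (SD, n = 4) against 70.2 ± 5.79 FPKM (SD, n = 4), and the log2 fold change of -0.26 (SE 0.09, 95% interval -0.45 to -0.064) had a limma adjusted p of 0.0608. Without LysM2 or without K2KO3 the limma adjusted p was 0.0389 or 0.0225, and Rela was then called. In the other 6 fits with a library left out it was not (limma adjusted p from 0.0979 to 0.151).

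Nfkb2 (chromosome 19, 46304320 to 46312385, plus strand) encodes the precursor that is processed to the DNA-binding subunit of the non-canonical pathway. Its FPKM were 28.5, 27.7, 28.5 and 30.6 in LysM0 to LysM3 and 22.7, 25, 22.2 and 26.5 in K2KO0 to K2KO3. The groups did not overlap, since even K2KO3 stayed under LysM1. The mean was 0.837 times that of LysM, with a log2 fold change of -0.26 (SE 0.07, 95% interval -0.42 to -0.1) and a limma adjusted p of 0.0325. Its size, -0.2589 before rounding, fell just short of the required 0.26, so that Nfkb2 passed the adjusted p but was not called. With a library left out, Nfkb2 was called without LysM0 or K2KO3 (limma adjusted p = 0.0441 and 0.0114), and in the other 6 fits its limma adjusted p was 0.0632 to 0.0961.

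Relb (chromosome 7, 19606217 to 19629438, minus strand), the partner of the processed Nfkb2 product, was at 19.9, 17.5, 17.8 and 19.1 FPKM in LysM0 to LysM3 and at 15.4, 17.6, 14.6 and 15.9 FPKM in K2KO0 to K2KO3. Only K2KO1 reached the LysM range. The log2 fold change was -0.22 (SE 0.07 and adjusted p = 0.0539 by limma). Relative to Nfkb2, Relb stood at 0.645 ± 0.0355 (SD, n = 4) in the LysM libraries and 0.661 ± 0.0439 (SD, n = 4) in the libraries labelled K2KO, so the ratio of these partners overlapped between the groups.

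Rel (c-Rel, chromosome 11, 23736847 to 23770970, minus strand), a subunit best known from lymphocytes and from induced cytokine genes of myeloid cells, was the least abundant of the 10 genes. It was at 5.66, 5.44, 5.47 and 4.77 FPKM in LysM0 to LysM3 and at 6.13, 6.14, 7.3 and 5.48 FPKM in K2KO0 to K2KO3. Here the direction was opposite to that of Rela, with K2KO3 alone inside the LysM range. The log2 fold change was 0.22 (SE 0.09 and adjusted p = 0.118 by limma). Of the 8 fits with a library left out, Rel was called in that without K2KO3 (limma adjusted p = 0.0488). Per 100 FPKM of Rela, Rel made up 6.56, 6.08, 7.54 and 5.44 FPKM in the LysM libraries and 9.06, 9.03, 11.02 and 6.95 FPKM in those labelled K2KO. All but K2KO3 exceeded the highest LysM value. Rel and Rela had fold changes of opposite sign, so a shift in this ratio was fixed by the choice of genes. It is not separate evidence.

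Nfkb1 (chromosome 3, 135584655 to 135691547, minus strand), which encodes the precursor of the most common DNA-binding partner of Rela, ranged from 16.8 to 20.2 FPKM in the LysM libraries and from 18.5 to 19.9 FPKM in those labelled K2KO. The latter lay within the LysM range. Its log2 fold change was 0.04 with a 95% interval from -0.1 to 0.19, and the limma adjusted p was 0.641. The 5 subunits together summed to 143 to 160.5 FPKM in the LysM libraries and 129 to 145 FPKM in the libraries labelled K2KO, again overlapping through LysM2 and K2KO3. Rela held 54.1% ± 2.53 of that sum (SD, n = 4) against 51.8% ± 1.87 (SD, n = 4).

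Of the inhibitors, Nfkbiz (chromosome 16, 55811375 to 55838899, minus strand) encodes IκBζ, a nuclear IκB protein that is rapidly induced by NF-κB and assists the expression of secondary response genes. Its FPKM were 18.1, 14.5, 19.2 and 17.4 in LysM0 to LysM3 and 14.3, 14.3, 11.8 and 11.9 in K2KO0 to K2KO3. The groups were separated by a narrow gap, with LysM1 at 14.53 FPKM and K2KO1 at 14.34 FPKM. Nfkbiz fell to 0.756 times the LysM mean, from 17.3 ± 1.98 FPKM to 13.1 ± 1.42 FPKM (SD, n = 4 each), a log2 fold change of -0.40 (SE 0.10, 95% interval -0.63 to -0.17, adjusted p = 0.0293 by limma).

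Tnfaip3 (chromosome 10, 19000910 to 19015657, minus strand) encodes the ubiquitin-editing enzyme A20, which shuts off signaling upstream of the IKK kinases. It was at 12.3, 11.6, 11.7 and 10.3 FPKM in LysM0 to LysM3 and at 12.8, 15.5, 16.8 and 13.9 FPKM in K2KO0 to K2KO3. No LysM library reached the lowest of the second group, K2KO0. Tnfaip3 rose to 1.28 times the LysM mean, from 11.5 ± 0.855 FPKM to 14.8 ± 1.77 FPKM (SD, n = 4 each), a log2 fold change of 0.35 (SE 0.09, 95% interval 0.14 to 0.56, adjusted p = 0.0314 by limma). The ratio of Tnfaip3 to Nfkbiz was 0.591 to 0.799 in the LysM libraries and 0.896 to 1.42 in the libraries labelled K2KO. Neither gene overlapped between the groups and their directions were opposite, so a gap in this ratio was fixed by the choice of genes.

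Nfkb2, Nfkbiz and Tnfaip3 were thus the 3 of 10 members whose groups did not overlap, where 23.1% of all tested genes did not (12.9% were higher with the K2KO label, 10.2% lower). Each gave an exact two-sided permutation p of 0.0286, the smallest that 4 against 4 libraries allow. With each library left out in turn, Tnfaip3 was called in 3 of 8 fits and Nfkbiz in 2 of 8. Tnfaip3 was not called without LysM1, LysM2, LysM3, K2KO1 or K2KO2, with limma adjusted p from 0.0649 to 0.102 in those fits. Nfkbiz was called only without LysM1 or K2KO3, and its limma adjusted p in the other 6 fits ran from 0.0511 to 0.0942. Ordinary least squares in place of limma called neither gene and 6.83% of all tested genes (3.93% higher, 2.9% lower). Quantile normalization called both, with 14.1% of all (7.68% and 6.43%), and upper-quartile scaling called Tnfaip3, with 19.1% of all (12.2% and 6.85%). The log2 fold change kept its sign in all 8 fits for both genes, between 0.29 and 0.42 for Tnfaip3 and between -0.48 and -0.35 for Nfkbiz.

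For the 3 remaining inhibitors the libraries of the 2 genotypes overlapped. Nfkbia (chromosome 12, 55489410 to 55492647, minus strand), the classical IκBα and the second most abundant member in either group, was at 55.3, 59.8, 60.7 and 63.5 FPKM in LysM0 to LysM3 and at 58.9, 47.6, 60.5 and 67.6 FPKM in K2KO0 to K2KO3. K2KO1 was the lowest and K2KO3 the highest of all 8 libraries. Its log2 fold change was -0.04 with a 95% interval from -0.27 to 0.19 (limma adjusted p = 0.809), and its sign turned with upper-quartile or quantile scaling of the libraries. Nfkbie (IκBε, chromosome 17, 45555703 to 45563169, plus strand) was at 8.21 to 10.02 FPKM and 9.6 to 10.04 FPKM, a log2 fold change of 0.08 (95% interval -0.069 to 0.24, limma adjusted p = 0.388). Tnip1 (chromosome 11, 54910785 to 54962917, minus strand), which encodes a ubiquitin-binding partner of A20, was at 23.9 to 29.5 FPKM and 25.3 to 28.6 FPKM, a log2 fold change of 0.04 (95% interval -0.13 to 0.21, limma adjusted p = 0.719). Of these 3 intervals, taken from FPKM as deposited, only that of Nfkbia passed 0.26, and only on the lower side. After the GC and length correction described below, the upper ends were 0.297 for Nfkbie, 0.293 for Tnip1 and 0.252 for Nfkbia.

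In order of level, Rela and Nfkbia led in the LysM libraries, followed by Nfkb2, Tnip1, Relb, Nfkb1, Nfkbiz, Tnfaip3, Nfkbie and Rel. The neighbours Nfkb2 and Tnip1, Relb and Nfkb1, and Nfkb1 and Nfkbiz overlapped there, while each other step was free of overlap. In the libraries labelled K2KO, Tnip1 stood above Nfkb2, Nfkb1 above Relb and Tnfaip3 above Nfkbiz, with overlap in the first and the last of these pairs. Tnfaip3 was below Nfkbiz in 4 of 4 LysM libraries and above it in 3 of 4 libraries labelled K2KO. Both genes had been called, in opposite directions, so this order is not separate evidence. Mean levels of the 10 genes covered the range between 34.98% and 90.2% of the way up the ranked tested genes.

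The GC content of transcripts moved with the fold change across the whole table. In the eighth of the tested genes with the lowest GC content (up to 42.2%), 24.9% were called higher and 1.76% lower, and in the eighth with the highest (57% or more), 1.98% were called higher and 21.9% lower. The members ranged from the second eighth to the highest, with none in the lowest. Rel and Nfkb1, with 42.5% and 44.9% GC, fell in the second eighth and Tnfaip3, with 47.1%, in the third. Nfkbiz, at 50.1%, was near the median gene (49.8%). Rela and Nfkb2 (both 59.4%) and Tnip1 (57.8%) were in the highest eighth, and Relb (56.8%) and Nfkbie (55.4%) in the one before it.

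**Figure D2:**
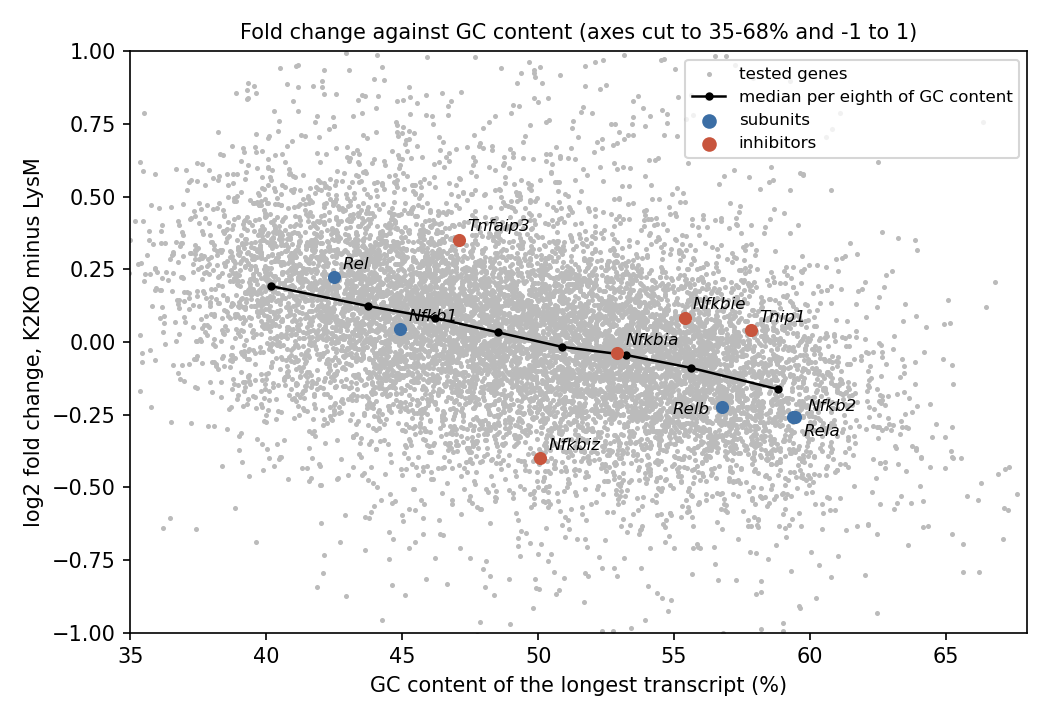
Log2 fold change (y axis, K2KO minus LysM, shown from -1 to 1) against GC content of the longest transcript (x axis, %) for the tested genes in grey, with the median of each eighth of GC content in black, subunits in blue and inhibitors in red. The median per eighth goes from 0.19 at the lowest GC content to -0.16 at the highest; 8 of the 10 members lie on the side of 0 on which the median of their eighth lies, Tnip1 and Nfkbie lie on the opposite side, and Nfkbiz lies well below the line.

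When each library was corrected for GC content and transcript length by local regression, 10% of genes were called, 4.44% higher and 5.61% lower, and of the 10 members only Nfkbiz was. Its log2 fold change then was -0.45 (SE 0.10 and adjusted p = 0.0327 by limma). That of Tnfaip3 shrank from 0.35 to 0.21 (95% interval 0.035 to 0.39, limma adjusted p = 0.1). Rel went from 0.22 to 0.0031 (limma adjusted p = 0.982), and Nfkb1 changed sign, to -0.079 (limma adjusted p = 0.415). For Rela, Relb and Nfkb2 the corrected values were -0.12, -0.16 and -0.18 (limma adjusted p = 0.186, 0.142 and 0.0946). Tnip1 and Nfkbie moved up, to 0.14 each (limma adjusted p = 0.19 and 0.181).

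**Figure D3:**
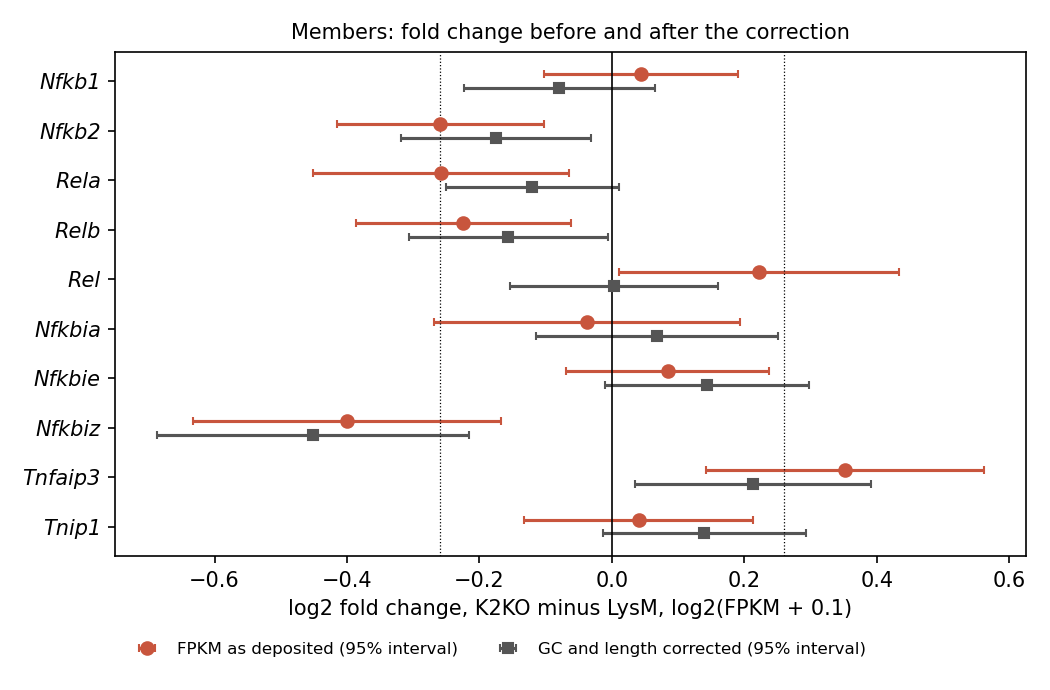
Log2 fold change of each member (x axis, K2KO minus LysM on the log2(FPKM + 0.1) scale) with its 95% interval, from FPKM as deposited (red circles) and with the GC and length correction (grey squares); dotted lines mark 0.26 on either side of 0. Nfkbiz is at -0.40 and -0.45, while Tnfaip3 moves from 0.35 to 0.21 and Rel from 0.22 to 0.0031.

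The rest of the pathway was read from 5 lists with 68 genes, of which 59 were tested. Of these 59, 5 were called higher and 10 lower, or 25.4% together against 18.4% of all tested genes (9.84% higher, 8.61% lower), shares that apply to each list below. The 5 include Vcam1, which passed the filter only through the group where it was high. The 15 calls became 4 without LysM3, 6 without LysM1 or K2KO2, 8 without K2KO1, 9 without LysM2, 10 without K2KO0, 19 without LysM0 and 22 without K2KO3. Across the table, the calls in the same fits numbered 337 without LysM3, 736 without LysM1, 496 without K2KO2, 726 without K2KO1, 1030 without LysM2, 706 without K2KO0, 2332 without LysM0 and 2837 without K2KO3, against 2014 with all libraries. Ordinary least squares gave 7 calls in the lists and 746 across the table. After the GC and length correction 10 were called (4 higher, 6 lower), 8 of them among the 15, where 10% of all genes were called (4.44% higher, 5.61% lower). Calls of the IKK subunits, upstream kinases and their adaptors were 1 higher and 1 lower among 11. Ikbke (IKKε), an inducible kinase that also activates interferon regulatory factors, was at 64.3, 67.5, 75.9 and 77.8 FPKM in LysM0 to LysM3 and 55.9, 53.8, 51.6 and 48.4 FPKM in K2KO0 to K2KO3. No library labelled K2KO reached the LysM range. It fell by 0.44 on the log2 scale (SE 0.08 and adjusted p = 0.0121 by limma), and by 0.53 after the correction (limma adjusted p = 0.0112). Ikbkg (NEMO), the regulatory subunit of the IKK complex, rose by 0.42 (SE 0.10 and adjusted p = 0.0216 by limma). After the correction the value of Ikbkg was 0.23 (limma adjusted p = 0.0662). Ikbkg shares exonic positions with G6pdx on the opposite strand, a gene at 58.25 FPKM on average. The level of Ikbkg is therefore uncertain if strand was not used in counting. The paper's methods name a stranded library kit but do not say whether strand was used in counting. The other 9 genes of this list were not called. Of the catalytic subunits, Chuk passed the adjusted p but not the fold limit (0.22, limma adjusted p = 0.0413), and Ikbkb was at 0.0019 (limma adjusted p = 0.98). Ikbke was called in all 8 fits with a library left out, and Ikbkg in 4 of 8 (not without LysM1, LysM3, K2KO1 or K2KO2).

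Among 9 ubiquitin ligase genes that carry the signal to IKK, Traf6, which acts below Toll-like receptors, rose by 0.28 (limma adjusted p = 0.0296). Rbck1 (HOIL-1), of the linear ubiquitin complex, fell by 0.30 (limma adjusted p = 0.0364). Neither was called after the GC and length correction (limma adjusted p = 0.185 and 0.186). Of the 3 other IκB proteins, Nfkbid (IκBNS) and Bcl3, which like IκBζ act in the nucleus, were called lower. Nfkbid was at 35.5, 28.4, 26.9 and 28.02 FPKM in LysM0 to LysM3 and 19.7, 25.3, 21.7 and 20.2 FPKM in K2KO0 to K2KO3, and fell by 0.45 (SE 0.11 and adjusted p = 0.0239 by limma). Bcl3 fell by 0.30 (SE 0.09 and adjusted p = 0.043 by limma). With the correction their values were -0.31 and -0.063 (limma adjusted p = 0.121 and 0.597). Nfkbib (IκBβ), which is cytoplasmic, was not called, with -0.21 and a limma adjusted p of 0.171. It shares exonic positions with Sirt2 on the opposite strand, at 84.5 FPKM on average, and its level is uncertain in the same way as that of Ikbkg. With a library left out, Nfkbid was called in 4 of 8 fits (not without LysM1, LysM3, K2KO0 or K2KO2). Traf6, Rbck1 and Bcl3 were called in 2 of 8 each, those without LysM0 or K2KO3.

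Of 11 other negative regulators 2 were called, both higher, a share near that of all tested genes (18.4% called). Rnf11, a ubiquitin ligase of the A20 complex, was at 13.5, 11.8, 12.9 and 11.5 FPKM in LysM0 to LysM3 and 18.6, 20.2, 18.7 and 15.6 FPKM in K2KO0 to K2KO3. All libraries labelled K2KO stood above the LysM range. Rnf11 rose by 0.55 (SE 0.09 and adjusted p = 0.00954 by limma) and by 0.39 after the correction (limma adjusted p = 0.0174). Cyld, a deubiquitinase, rose by 0.45 (SE 0.08 and adjusted p = 0.0112 by limma), but the correction left it at 0.24 (limma adjusted p = 0.0552). The further A20 partners Itch and Tax1bp1 had log2 fold changes of 0.19 and 0.25 and limma adjusted p of 0.0748 and 0.0708. Zc3h12a, which encodes an RNase that degrades cytokine transcripts, was not called (0.31, limma adjusted p = 0.0668), but was with the correction (0.41, limma adjusted p = 0.0415) and in 1 of the 8 fits with a library left out, that without LysM0. Both Rnf11 and Cyld were called in all 8 fits with a library left out.

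**Figure D4:**
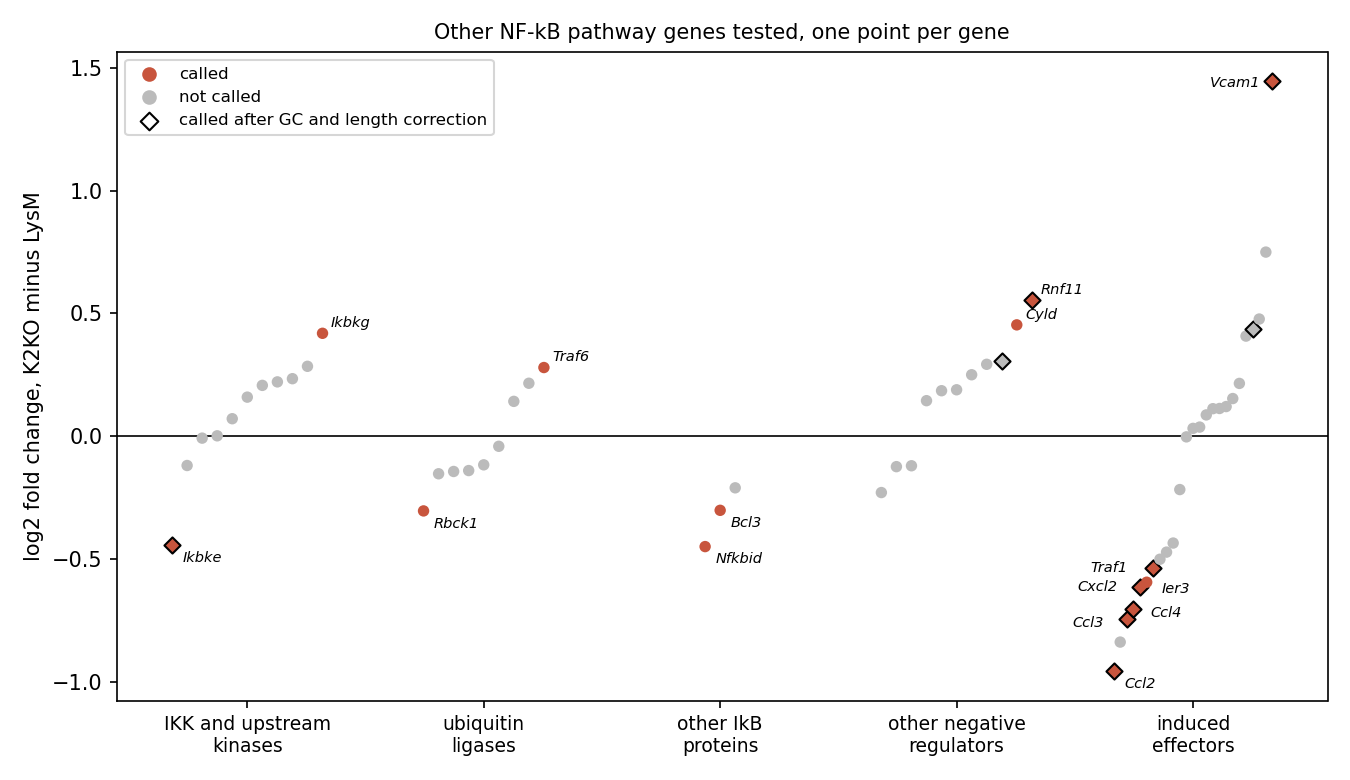
Log2 fold change (y axis, K2KO minus LysM) of the 59 tested genes in 5 other pathway lists (x axis), sorted within each list; red points were called, grey points were not, and diamonds with a black edge were called after the GC and length correction. Ikbke and 5 chemokine or Traf1 points among the induced effectors are red diamonds below 0, and Rnf11 and Vcam1 are red diamonds above it. Vcam1 passed the filter only through the libraries labelled K2KO.

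Among 34 effector genes that NF-κB induces, 25 were tested, and 1 was called higher and 6 lower, where 9.84% and 8.61% of all tested genes were. Their median log2 fold change was 0.032, near that of all genes (0.011). The 6 with the smallest adjusted p were Ccl4 (-0.70), Traf1 (-0.53), Vcam1 (1.45), Ccl3 (-0.74), Ier3 (-0.59) and Ccl2 (-0.96). Vcam1, the only effector called higher, had a LysM mean of 0.809 FPKM and a mean of 2.37 FPKM under the K2KO label, so it passed the filter only through the group where it was high. Its calls are therefore not used as support. For the 6 genes the limma adjusted p lay between 0.00491 for Ccl4 and 0.0335 for Ccl2. Vcam1 aside, all but Ier3 were also called after the correction (for Ier3, limma adjusted p = 0.0687). The seventh, Cxcl2, was at -0.61 (limma adjusted p = 0.0374). With a library left out, Ccl4 was called in 8 of 8 fits, Traf1 in 7 (not without LysM3) and Ccl3 in 5 (not without LysM1, LysM3 or K2KO2). Ier3 and Cxcl2 were called in 3 of these fits and Ccl2 in 2. The latter 3 were not called without LysM1, LysM2, LysM3, K2KO1 or K2KO2, and Ccl2 also not without K2KO0. Values of the cytokine genes differed in sign: Tnf was at 0.44 (limma adjusted p = 0.0511) and was called with the correction (0.53, limma adjusted p = 0.0484), and Il1b was at -0.43 (limma adjusted p = 0.315), while Il6, Il12b and Il1a were below the filter.

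Of the other cell types, neutrophil markers were the highest. The 8 neutrophil markers summed to 186 to 315 FPKM in the LysM libraries and 175 to 306 FPKM in the libraries labelled K2KO, and S100a9, their most abundant gene, was at 91.7, 139, 126 and 170 FPKM in LysM0 to LysM3 and at 85.4, 141, 114 and 166 FPKM in K2KO0 to K2KO3. The defining marker Ly6g was at 0 to 0.357 FPKM in all 8 libraries. Of the 7 tested, only Camp, a granule peptide gene, was called, and it fell by 1.14 (limma adjusted p = 0.0178). The part of neutrophils in the values above was not tested. Lymphocyte markers summed to at most 2.4 FPKM in any library, fibroblast markers to at most 3.13 FPKM, erythroid markers to at most 1.57 FPKM and dendritic cell markers to at most 3.83 FPKM.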

How the data were processed

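RNA of BMDMs was sequenced by the authors from 4 mice per genotype. The paper's methods give alignment to mm10 with TopHat2 and FPKM from Cufflinks, while the submitters' processing notes list STAR, Cufflinks and Cuffdiff; versions are not given in the sources used here. The deposited FPKM have a column per library, without pooling. FPKM are not counts, so no count model, counting interval or detection limit was used.

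Values were tested as log2(FPKM + 0.1) in R 4.3.3 by limma 3.58.1 (eBayes, trend on mean level, no covariates), for the 10920 genes whose mean FPKM reached 1, with Benjamini-Hochberg adjustment over these genes. Single values were also compared by exact two-sided permutation. GENCODE M21 (GRCm38) gave positions, length and GC content of the longest transcript, and 23645 of 23761 genes matched. The local regression used a span of 0.3. The fit was tested on simulated data.

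The members and lists were chosen with earlier results of these data known. Named genes are Klf2, the members and, per pathway list, called genes, at most the 6 with the smallest adjusted p. Pathway genes named beyond these (Chuk, Ikbkb, Nfkbib, Itch, Tax1bp1, Zc3h12a, Cxcl2, Tnf, Il1b, Il6, Il12b, Il1a), G6pdx, Sirt2 and the cell type markers (Cd68, Csf1r, Mertk, Lyz2, S100a9, Ltf, Mpo, Ly6g, Camp) were chosen after their values were seen. Alternatives were other pseudocounts, filters, scalings and models, a block on the column number, and each library left out.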

Additional observations from a re-analysis of the deposited data

Results flagged for a closer look

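Far values were looked for in 52 groups of 4 libraries (26 genes: Klf2, the 10 members and the 15 called pathway genes). In 2 of them 1 library stood apart, and chance alone gives about 1 in 20 groups, or 2.6. Rela was at 78.79 FPKM in K2KO3 and at 66.3 to 68.03 FPKM in the remaining libraries labelled K2KO. Rbck1 was at 51.19 FPKM in K2KO3 and at 40.9 to 42.1 FPKM in the remaining 3. Leaving out K2KO3 gave the largest number of called members among the 8 fits with a library left out (5), and also the largest number of called genes across the table (2837).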

How the results depend on the processing

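Across the table, 2014 genes were called (1074 higher, 940 lower). The number was 1090 without a filter (607 and 483), 1095 with the GC and length correction (484 and 611), 746 with ordinary least squares (429 and 317) and 110 at an absolute log2 fold change over 1 (65 and 45). With upper-quartile scaling 64.1% of calls were higher, against 53.3%. Without each library in turn it ranged from 337 to 2837, with 173 to 1488 higher and 164 to 1349 lower.

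Of the members, 2 were called (1 higher, 1 lower). With no filter, with ordinary least squares and at an absolute log2 fold change over 1, 0 were called in either direction, although 6, 5 and 6 members had an unadjusted p under 0.05 (limma, ordinary least squares and limma). Upper-quartile scaling left 1, Tnfaip3, and 0 lower (Nfkbiz, limma adjusted p = 0.0532), and the GC and length correction left 1, Nfkbiz, and 0 higher. With no limit on the fold change 2 were called lower, since Nfkb2 joined. With 1 library left out, 0 to 5 were called, 0 to 2 higher and 0 to 3 lower. The number by limma was 0 without LysM3, K2KO1 or K2KO2 (with 5 members at an unadjusted p under 0.05 each time), 1 without LysM1, LysM2 or K2KO0, 2 without LysM0, and 5 without K2KO3. Genes called across the table in the same fits numbered 337, 726 and 496, then 736, 1030 and 706, then 2332, and 2837.

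Signs turned for 2 members, neither of them called in any setting. Nfkb1 was at -0.079 with the GC and length correction. Nfkbia was at 0.061 with quantile normalization, 0.0060 with upper-quartile scaling and 0.069 with the GC and length correction. With 1 library left out it ran from -0.11 to 0.059, the latter without K2KO1.

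Whether the numbers that end the column names pair the libraries is not given by the labels. Over all tested genes, deviations of same-numbered libraries correlated at only -0.0702 to 0.0729. The neutrophil markers S100a9 and Ltf had the same order by number in both groups. So did the summed neutrophil list (186, 267, 231 and 315 FPKM against 175, 292, 227 and 306 FPKM), of which S100a9 was the most abundant gene. The other tested neutrophil markers did not, and the order of Mpo was reversed. With a replicate block on the column numbers, 1 member was called (Tnfaip3, 0 lower) and 2057 genes. Nfkbiz, Ccl2 and Cxcl2 were then no longer called (limma adjusted p = 0.0555, 0.0585 and 0.0612). With the replicate block and the GC and length correction together, 0 members were called by limma in either direction (3 at an unadjusted p under 0.05) and 864 genes (393 higher, 471 lower), with Nfkb1 at -0.079 and Nfkbia at 0.069. FPKM carry no read counts, so what depth limits could not be given.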
